A study of Homo sapiens with 8 samples.

Results

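The ATR and ATM checkpoint genes described here are 10 named genes of DNA damage signalling (ATM, ATR, ATRIP, TOPBP1, CLSPN, TIMELESS, TIPIN, CHEK1, CHEK2 and WEE1), taken by name from a table of 31721 genes and followed across all 8 libraries. All 10 are given whatever their values, but the list was chosen with earlier results of these data known. RNA sequencing was done on A2780, a long-established line of human ovarian carcinoma cells. The cells had received olaparib, palbociclib, both drugs together or the solvent DMSO for 24 hours. Olaparib blocks PARP1 and PARP2, enzymes that build poly(ADP-ribose) at DNA strand breaks, and palbociclib blocks CDK4 and CDK6, the kinases that let cells leave G1 phase. Each of the 4 groups had 2 libraries, labelled as biological repeats of the 1 line, with no drug dose and no word on separate cultures, so p-values measure the spread between these libraries, which may be technical.

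Background on these genes is as follows. ATR is a kinase called to single-stranded DNA at stalled replication forks, where ATRIP carries it to the DNA and TOPBP1 switches it on. Claspin (CLSPN) and the TIMELESS and TIPIN pair travel with the fork and help ATR to phosphorylate the kinase CHEK1. ATM is activated by double-strand breaks and phosphorylates CHEK2. CHEK1 restrains the CDC25 phosphatases, which switch on CDK1 and CDK2, and WEE1 places the phosphate that CDC25 removes, so both hold cells back from mitosis. All of this acts on proteins, and the values below are RNA levels.

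Of the 10 genes, 9 had a mean of at least 1 FPKM (fragments scaled by exon length and library size, as the authors made them) over the 8 libraries and were tested. ATRIP did not reach that mean. CLSPN, TIPIN, CHEK1, TIMELESS, TOPBP1 and WEE1 fell with palbociclib and with the combination, CLSPN to 49.8% and 40.6% of the DMSO mean. ATM rose with both, to 122.0% and 132.0% of the DMSO mean. ATR passed no test, and CHEK2 fell by a small amount that depended on the scaling. With olaparib alone, only TIPIN passed the test, as lower, and that call depended on the scaling and on single libraries.

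Recovered read totals (described with the processing) were 20566089 to 34056976 per library, and the 9 tested genes held 406 to 7754 reads in a library. Counting error alone then gives a coefficient of variation between 4.96% and 1.14%. Of 8 epithelial and ovarian markers, 7 were in the table analysed, and 6 of these 7 were under 1 FPKM in every library. The highest value was 1.07 FPKM, for EPCAM in a combination library. Their summed level was 0.53 to 0.646 FPKM with olaparib, 1.11 to 1.12 with palbociclib, 1.18 to 1.40 with the combination and 0.423 to 0.453 with DMSO, so the epithelial morphology given in the labels had little support in these markers. Of 10 markers of blood, vessel and other cell types, 8 were in the table and all stayed under 1 FPKM. The summed level of 10 genes of cycling cells was 734 to 746 FPKM with olaparib, 432 to 444 with palbociclib, 408 to 414 with the combination and 741 to 769 with DMSO. In bulk RNA, fewer cells of a cycle phase and less RNA per cell cannot be told apart, and the part of cycle position in the results below was not tested.

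Of the apical kinases, ATR passed the test with no treatment, while ATM was the only one of the 9 tested genes called higher with palbociclib or with the combination. ATR had 4.06 and 3.66 FPKM with olaparib, 4.16 and 4.03 with palbociclib, 4.05 and 3.73 with the combination, and 4.13 and 4.34 with DMSO. The palbociclib libraries overlapped those of DMSO, while both olaparib and both combination libraries lay below them by a small margin. In limma, the log2 fold change of ATR on the log2(FPKM + 1) scale was −0.11 ± 0.06 (SE) with olaparib, −0.04 ± 0.06 with palbociclib (95% interval −0.18 to 0.11) and −0.10 ± 0.06 with the combination. Adjusted p was 0.274, 0.633 and 0.207, and with TPM scaling the sign turned with palbociclib and with the combination. ATR shares 16.4% of its exon bases with a processed pseudogene on the other strand (AC109992.1), and no source used here says whether counting used strand, so its values are uncertain. Reads over the shared bases were not counted apart.

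ATM had 5.31 and 4.70 FPKM with olaparib, 6.27 and 6.29 with palbociclib, 7.03 and 6.54 with the combination, and 4.99 and 5.30 with DMSO. All 4 libraries that received palbociclib were above all 4 that did not, and the olaparib libraries spanned those of DMSO. ATM rose by 0.25 ± 0.06 (adjusted p = 0.0148, limma) with palbociclib and by 0.34 ± 0.06 (adjusted p = 0.00289) with the combination, and was −0.03 ± 0.06 (adjusted p = 0.746) with olaparib. The palbociclib call was lost without DMSO replicate 1 (adjusted p = 0.0849), palbociclib replicate 1 (0.0587) or palbociclib replicate 2 (0.0666), and the combination call held without any 1 library. ATRIP, the ATR partner, was listed at 0 and 0.063 FPKM with olaparib, 0.027 and 0.066 with palbociclib, 0.041 and 0.081 with the combination, and 0.102 and 0.020 with DMSO. These correspond to between 0 and 11 recovered reads per library, so no difference of ATRIP was detectable from so few reads. ATRIP shares 27.9% of its exon bases with TREX1, an exonuclease gene on the same strand, so reads there could be split or dropped by the counting.

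TOPBP1 and claspin, which pass the signal to ATR and CHEK1, fell in every library with palbociclib. TOPBP1 had 17.1 and 16.1 FPKM with olaparib, 13.99 and 13.2 with palbociclib, 12.9 and 12.6 with the combination, and 18.5 and 18.6 with DMSO. Every treated library was below both DMSO libraries, and those with palbociclib below those with olaparib alone. TOPBP1 fell by 0.42 ± 0.04 on the log2 scale with palbociclib (adjusted p = 0.000329, limma) and by 0.51 ± 0.04 with the combination (adjusted p = 0.000101), and with olaparib it was −0.16 ± 0.04 (adjusted p = 0.0590).

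CLSPN had the largest decrease of the 9 genes. It had 13.1 and 13.4 FPKM with olaparib, 7.45 and 7.97 with palbociclib, 6.84 and 5.74 with the combination, and 14.8 and 16.2 with DMSO. The groups did not overlap, and the 2 palbociclib-containing groups lay far below the others. CLSPN fell by 0.92 ± 0.08 with palbociclib (adjusted p = 0.000144, limma) and by 1.18 ± 0.08 with the combination (adjusted p = 3.35e-05), and with olaparib it was −0.21 ± 0.08 (adjusted p = 0.119). Only 0.490% of the 12443 tested genes had a lower log2 fold change than CLSPN with palbociclib, and 0.249% with the combination.

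The fork protection pair TIMELESS and TIPIN fell by unequal amounts. TIMELESS, the most abundant of the 10 genes, had 37.7 and 38.0 FPKM with olaparib, 29.4 and 28.5 with palbociclib, 26.6 and 28.3 with the combination, and 41.0 and 42.4 with DMSO. Each treated group was below DMSO in both libraries. TIMELESS fell by 0.51 ± 0.04 with palbociclib (adjusted p = 0.000121, limma) and by 0.58 ± 0.04 with the combination (adjusted p = 4.24e-05), and with olaparib it was −0.14 ± 0.04 (adjusted p = 0.0676). TIPIN had 9.88 and 10.5 FPKM with olaparib, 7.61 and 7.70 with palbociclib, 6.73 and 5.78 with the combination, and 12.5 and 13.1 with DMSO. Its 4 groups did not overlap at all, and ran from the combination through palbociclib and olaparib up to DMSO. TIPIN fell by 0.67 ± 0.07 with palbociclib (adjusted p = 0.000283, limma), by 0.93 ± 0.07 with the combination (adjusted p = 4.86e-05) and by 0.30 ± 0.07 with olaparib (adjusted p = 0.0332). The olaparib call was lost with TPM scaling (adjusted p = 0.0874, limma) and in other settings given below. TIPIN shares 21.0% of its exon bases with the processed pseudogene RPL9P25 on the same strand, so its values are uncertain too.

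The effector kinases CHEK1 and CHEK2 parted. CHEK1 had 10.98 and 10.6 FPKM with olaparib, 8.17 and 7.72 with palbociclib, 7.09 and 6.89 with the combination, and 11.9 and 11.7 with DMSO. All 4 groups were separate. CHEK1 fell by 0.52 ± 0.04 with palbociclib (adjusted p = 0.000130, limma) and by 0.68 ± 0.04 with the combination (adjusted p = 2.78e-05), and with olaparib it was −0.12 ± 0.04 (adjusted p = 0.0998). CHEK2 had 11.6 and 11.4 FPKM with olaparib, 11.9 and 11.04 with palbociclib, 11.7 and 10.9 with the combination, and 12.7 and 13.6 with DMSO. The 3 treated groups overlapped one another and all lay below DMSO. CHEK2 fell by 0.18 ± 0.05 with palbociclib (adjusted p = 0.0301, limma) and by 0.20 ± 0.05 with the combination (adjusted p = 0.0174), and with olaparib it was −0.18 ± 0.05 (adjusted p = 0.0719). Both CHEK2 calls were lost with TPM scaling (adjusted p = 0.284 with palbociclib and 0.355 with the combination), with quantile normalisation (0.197 and 0.263) and without DMSO replicate 2 (0.169 and 0.111). The palbociclib call was also lost with no filter on low values (0.0780) or without palbociclib replicate 2 (0.161), and the combination call without combination replicate 2 (0.0875).

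WEE1, the kinase that opposes CDC25 on CDK1 and CDK2, was lower in both groups that received palbociclib. It had 8.72 and 8.49 FPKM with olaparib, 6.69 and 6.42 with palbociclib, 6.38 and 6.34 with the combination, and 8.58 and 8.61 with DMSO. The olaparib libraries spanned the DMSO ones and the palbociclib-containing libraries lay below all of them. WEE1 fell by 0.35 ± 0.04 with palbociclib (adjusted p = 0.000427, limma) and by 0.38 ± 0.04 with the combination (adjusted p = 0.000182). With olaparib its 95% interval was −0.09 to 0.09.

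**Figure D1:**
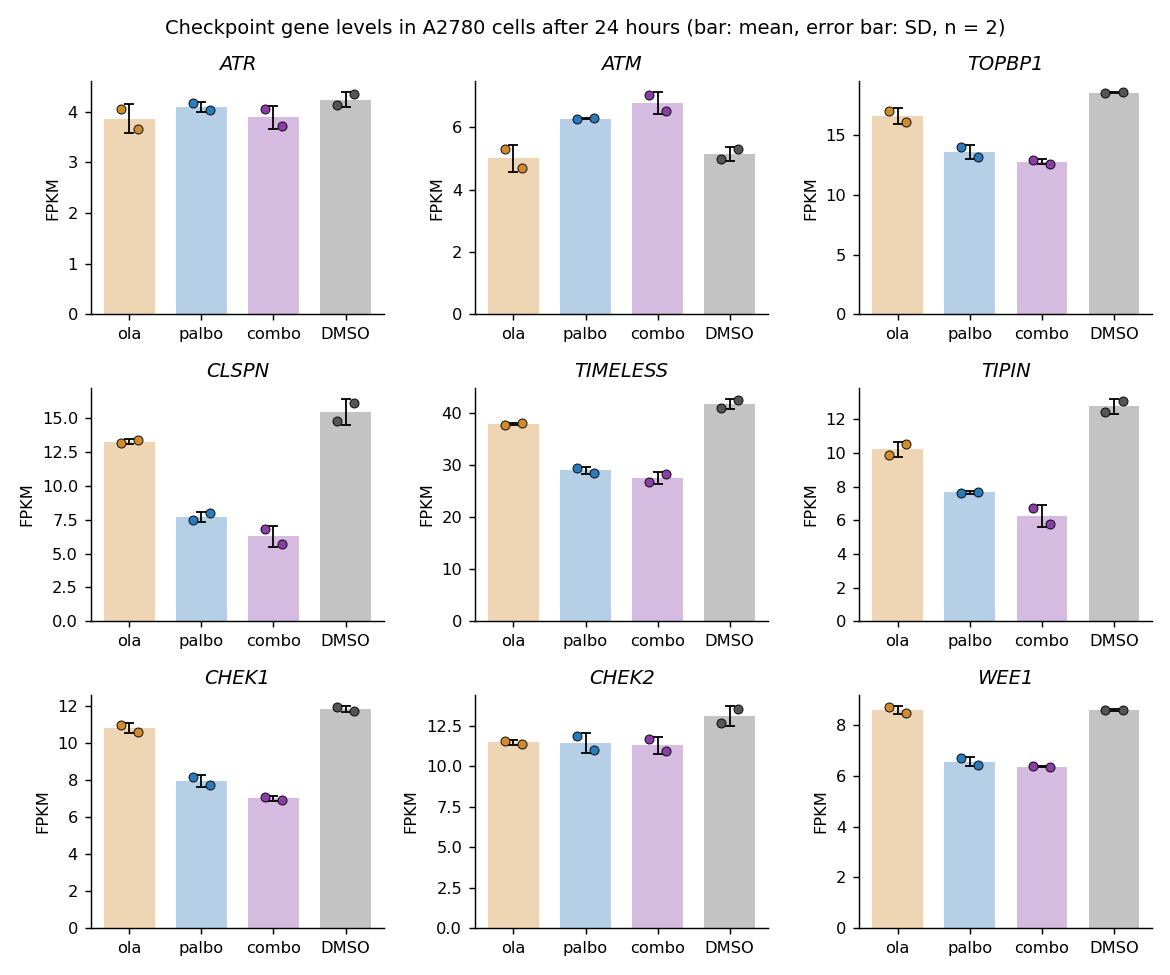
FPKM of the 9 tested checkpoint genes in each library (points), with the mean (bar) and SD (error bar) of 2 libraries for olaparib (ola), palbociclib (palbo), the combination (combo) and DMSO. ATM is higher in the 2 groups that received palbociclib, and CLSPN, at 7.45 and 7.97 FPKM with palbociclib against 14.8 and 16.2 with DMSO, shows the deepest drop.

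Counted over the 9 tested genes, the test called 7 lower and 1 higher with palbociclib, and 7 lower and 1 higher with the combination. Over all tested genes limma called 50.1% with palbociclib (31.4% lower, 18.7% higher) and 56.8% with the combination (35.3% lower, 21.5% higher), so a call on its own is common in these comparisons. With olaparib 1 of the 9 was called lower and 0 higher, beside 14.6% of all tested genes (10.5% lower, 4.13% higher). Of the 12443 tested genes 1821 were called, against 13 (0 of them lower) without DMSO replicate 1, 28 (6 lower) without DMSO replicate 2, 268 (136 lower) without olaparib replicate 1 and 33 (10 lower) without olaparib replicate 2. The share of all calls that were higher was 37.3% with palbociclib, 37.8% with the combination and 28.2% with olaparib, and with TPM scaling 56.1%, 57.4% and 66.5%. With quantile normalisation it was 60.2% with olaparib. The median log2 fold change of the 9 genes was −0.14 with olaparib, −0.42 with palbociclib and −0.51 with the combination, beside −0.03, −0.05 and −0.06 over all tested genes. TPM scaling moved the median of all tested genes by 0.12 with the combination. The calls of CLSPN, TIPIN, CHEK1, TIMELESS, TOPBP1 and WEE1 with palbociclib and with the combination held in every alternative setting and without any 1 library.

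With olaparib both libraries of 7 of the 9 genes were below both DMSO libraries, beside 38.6% of all tested genes, and 0 of 9 were above (23.3%). With palbociclib 7 were below (46.3%) and 1 above (32.5%), and with the combination 8 were below (46.9%) and 1 above (32.5%). The olaparib call of TIPIN is less firm than the others. It was lost with no filter on low values (adjusted p = 0.102), with quantile normalisation (0.0779) and with TPM scaling (0.0874). It was also lost without DMSO replicate 1 (0.117) or 2 (0.167), olaparib replicate 1 (0.114) or 2 (0.0901), and palbociclib replicate 1 (0.0586) or 2 (0.0583).

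**Figure D2:**
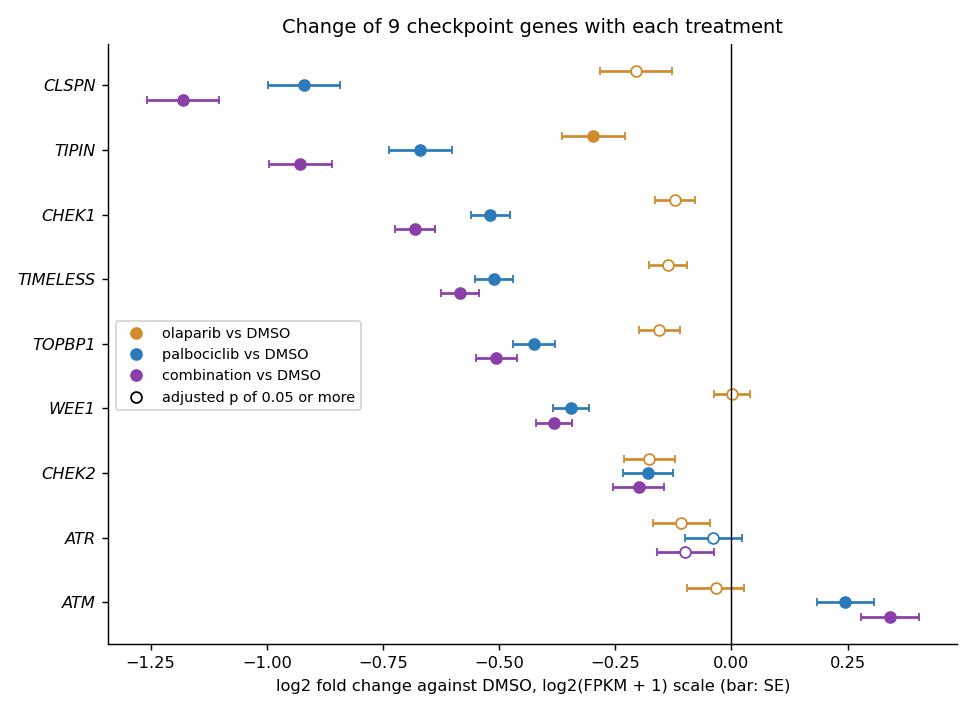
Log2 fold change against DMSO on the log2(FPKM + 1) scale, with its SE, for each treatment, with filled points where the adjusted p was under 0.05. CLSPN stands lowest at −0.92 with palbociclib and −1.18 with the combination, and ATM lies above 0 with both.

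The genes lie on several chromosomes (GRCh38, GENCODE v29), and all values are over their exons. ATM (chr11:108222484-108369102), CHEK1 (chr11:125625136-125676255) and WEE1 (chr11:9573681-9593457) are on the plus strand, as is ATRIP (chr3:48446710-48467645). On the minus strand are ATR (chr3:142449235-142578826), TOPBP1 (chr3:133598175-133662380), CLSPN (chr1:35720218-35769967), TIMELESS (chr12:56416373-56449403), TIPIN (chr15:66336206-66386746) and CHEK2 (chr22:28687743-28742422). CHEK2 shares 6.70% of its exon bases with HSCB on the other strand.

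The order of the levels changed with treatment. In DMSO it ran TIMELESS, TOPBP1, CLSPN, CHEK2, TIPIN, CHEK1, WEE1, ATM, ATR and ATRIP. CHEK2 and TIPIN overlapped, and all other neighbours in that order were separate. With olaparib CHEK1 stood above TIPIN and the rest of the order was that of DMSO. With palbociclib the order was TIMELESS, TOPBP1, CHEK2, CHEK1, CLSPN, TIPIN, WEE1, ATM, ATR and ATRIP, and CLSPN overlapped with both CHEK1 and TIPIN. In the combination CLSPN went to place 7 and ATM to place 5, and the libraries of CHEK1, ATM, WEE1, CLSPN and TIPIN then overlapped with at least 1 of their neighbours. FPKM compares genes per length, but ATM, ATRIP, CHEK2 and TOPBP1 were counted on another exon length than that of GENCODE v29, so their place against the others is approximate.

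Ratios of FPKM within a library show the uneven change without any scaling between libraries. CHEK1 over CHEK2 was 0.939 ± 0.0109 with olaparib, 0.693 ± 0.00976 with palbociclib and 0.619 ± 0.0165 with the combination, against 0.902 ± 0.0573 with DMSO (SD, n = 2 each). ATM over ATR was 1.30 ± 0.0175, 1.53 ± 0.0409 and 1.74 ± 0.0144 in the same 3 groups, against 1.21 ± 0.00813 with DMSO. TIMELESS over TIPIN was 3.71 ± 0.148, 3.79 ± 0.115 and 4.43 ± 0.667, against 3.26 ± 0.0361 with DMSO. Each palbociclib-containing group lay wholly on 1 side of DMSO in these 3 ratios. Olaparib alone also lay wholly above DMSO in ATM over ATR and in TIMELESS over TIPIN, and overlapped DMSO in CHEK1 over CHEK2. The smallest p an exact two-sided permutation test allows with 2 libraries a side is 0.333, so none could pass the threshold. CLSPN over CHEK1 was 0.972 ± 0.0847 with palbociclib and 0.899 ± 0.0926 with the combination, against 1.31 ± 0.101 with DMSO.

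**Figure D3:**
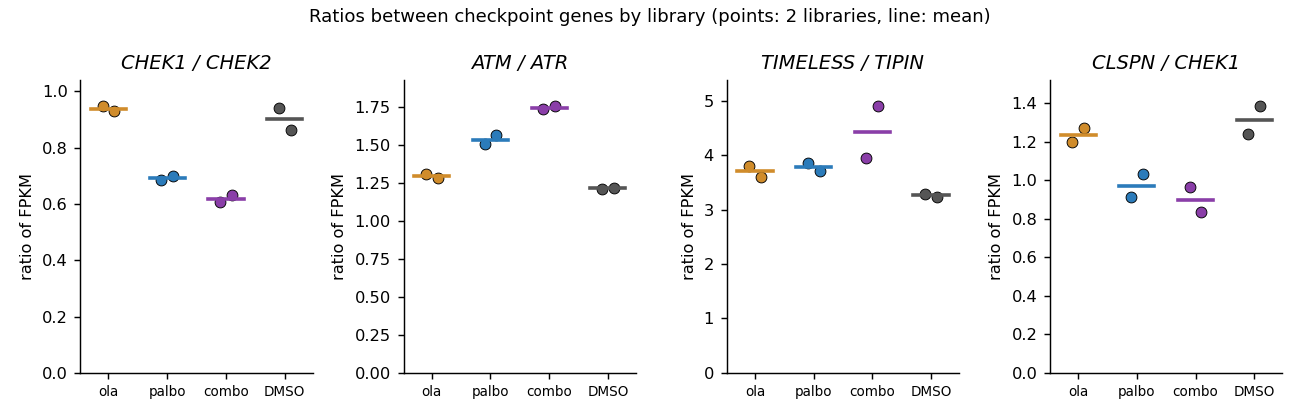
Ratio of the FPKM of 2 checkpoint genes in each library (points) with the group mean (line), for 4 ratios, with olaparib (ola), palbociclib (palbo), combination (combo) and DMSO. CHEK1 over CHEK2 is 0.693 with palbociclib and 0.619 with the combination, below 0.902 with DMSO, and ATM over ATR is highest with the combination at 1.74.

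The design also asks whether adding a drug to the other changes these genes. When palbociclib was added to olaparib, limma called 6 of 9 genes lower and 1 higher, beside 44.4% of all tested genes (27.4% lower, 17% higher). Of all calls 38.2% were higher, and 53.9% with TPM scaling. CLSPN fell by 0.97 ± 0.08, TIPIN by 0.63 ± 0.07, CHEK1 by 0.56 ± 0.04, TIMELESS by 0.45 ± 0.04, WEE1 by 0.38 ± 0.04 and TOPBP1 by 0.35 ± 0.04, while ATM rose by 0.38 ± 0.06. ATR (0.01 ± 0.06) and CHEK2 (−0.02 ± 0.05) did not pass, and both changed sign under other scalings or without 1 library. Both libraries of 6 genes were below both olaparib libraries (41.9% of all tested genes) and those of 1 gene, ATM, above (30.1%). Here too FPKM was compared as deposited, and the library sums were lower with the combination than with olaparib alone. Palbociclib added to olaparib and palbociclib against DMSO use no library in common, and over the 9 genes their log2 fold changes had the same sign in 8 (88.9%) and a Pearson r of 0.99. Over all 12443 tested genes the figures were 83.6% and 0.778. These are descriptions of 9 genes that share their libraries.

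**Figure D4:**
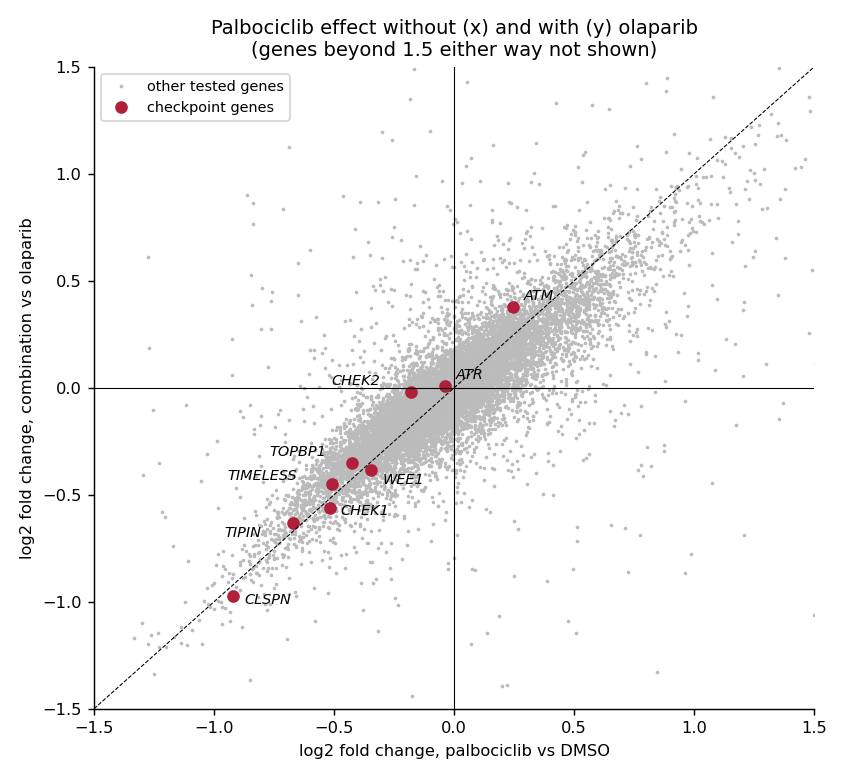
Log2 fold change with palbociclib against DMSO (x axis) and with the combination against olaparib (y axis) on the log2(FPKM + 1) scale, for the 9 checkpoint genes (large points) and all other tested genes (small points), with the line of equal values dashed. CLSPN lies near the line at −0.92 and −0.97, ATM at 0.25 and 0.38, and CHEK2 at −0.18 and −0.02.

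When olaparib was added to palbociclib, limma called 0 of 9 genes, beside 0.0241% of all tested genes (0.0161% lower, 0.00804% higher). At an unadjusted p under 0.05 were 2067 of all 12443 tested genes and 3 of the 9. These were CHEK1 (−0.16 ± 0.04, adjusted p = 0.167), TIPIN (−0.26 ± 0.07, adjusted p = 0.167) and CLSPN (−0.26 ± 0.08, adjusted p = 0.196). Voom on recovered reads called 1, CLSPN (−0.32, adjusted p = 0.0350), beside 3.25% of all tested genes. In both libraries 6 of 9 genes were below both palbociclib libraries, beside 29.1% of all tested genes, and 1 gene, ATM, was above (18.1%). These counts too compare FPKM as deposited, and the library sums were lower with the combination than with palbociclib alone. The departure from additivity is the effect of olaparib with palbociclib minus that without it. Limma called it for 0 of 9 genes (0.00804% of all tested genes), and voom for 0 (0.498%). With an unadjusted p under 0.05 in limma were 0 of the 9, beside 1315 of all 12443 tested genes. The largest departure of the 9 was that of CHEK2, 0.16 ± 0.08 (95% interval −0.03 to 0.34, adjusted p = 0.505). The intervals of CLSPN (−0.31 to 0.21) and CHEK1 (−0.18 to 0.10) include departures of either sign, so these data do not show that the drugs added up.

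Beyond the 10 genes, 48 other genes of the same signalling network were grouped by role, and all 48 were tested. The lists, like the 10 genes, were chosen with earlier results of these data known, so their counts are descriptions only. With palbociclib 33 of the 48 were called lower and 2 higher (median −0.33, beside −0.05 over all tested genes), where 31.4% of all tested genes were called lower and 18.7% higher. With the combination 35 were called lower and 3 higher (median −0.38), beside 35.3% and 21.5% of all tested genes. With olaparib 7 were called lower and 1 higher (median −0.08), beside 10.5% and 4.13%, so the olaparib counts are near the background. Without DMSO replicate 1, DMSO replicate 2 or olaparib replicate 2 the olaparib count of the 48 was 0, and without olaparib replicate 1 it was 1. Beside them, 9 of the 10 cycling markers were called lower with palbociclib (median −0.79), 10 of 10 with the combination (median −0.83) and 1 of 10 with olaparib (median −0.07). In the combination against olaparib 30 of the 48 were called lower and 1 higher, beside 27.4% and 17% of all tested genes. In the combination against palbociclib limma called 0 of the 48, and voom called 2, beside 3.25% of all tested genes with voom. At an unadjusted p under 0.05 in limma were 17 of the 48, beside 2067 of all 12443 tested genes. The departure from additivity was called for 0 of the 48 by limma and by voom, beside 0.00804% and 0.498% of all tested genes. With an unadjusted p under 0.05 in limma were 3 of the 48, beside 1315 of all 12443 tested genes.

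The role counts with palbociclib below stand beside the same 31.4% of all tested genes called lower, and with the few genes of a role a count near it says nothing about that role. The fork partners, which start and carry replication, were called lower in 5 of 5 genes with palbociclib, CDC45 of the replicative helicase with the lowest value (−0.78 ± 0.05, adjusted p = 4.81e-05, limma). The RAD9-HUS1-RAD1 clamp and its loader, which bring TOPBP1 to ATR, had 6 of 9 lower, with the loader subunit RFC5 at −0.77 ± 0.04 (adjusted p = 3.76e-05). The 3 that did not pass were the clamp subunits RAD9A (−0.08 ± 0.05, adjusted p = 0.243) and HUS1 (−0.07 ± 0.06, adjusted p = 0.352), and RAD17 of the loader (−0.02 ± 0.05, adjusted p = 0.743). Of the RPA subunits, which coat single-stranded DNA, and ETAA1, which binds RPA and activates ATR, 3 of 4 were lower, with RPA3 at −0.47 ± 0.05 (adjusted p = 0.000291). With the combination RPA2 had the lowest value of this role (−0.58 ± 0.04, adjusted p = 5.67e-05). Break sensing genes had 8 of 11 lower with palbociclib, with the histone H2AX, which ATM phosphorylates beside breaks, at −0.71 ± 0.08 (adjusted p = 0.000473). With the combination TP53BP1, which binds chromatin beside breaks, was higher (0.17 ± 0.04, adjusted p = 0.00696).

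In the switch that CHEK1 and WEE1 act on, 5 of 7 genes were lower and 1 higher with palbociclib. CDC25A fell by 0.99 ± 0.06 (adjusted p = 5.48e-05, limma), and had 17.5 ± 0.707 FPKM with palbociclib against 35.9 ± 1.51 with DMSO (SD, n = 2 each). CDC25C, another phosphatase of the family, rose by 0.32 ± 0.07 (adjusted p = 0.0101), and had 6.53 ± 0.570 FPKM with palbociclib against 5.01 ± 0.138 with DMSO. Of the 5 genes in the shut-off role, which also holds the claspin stabiliser USP7, 2 were lower and 1 higher with palbociclib. Their median was −0.04, and 31.4% of all tested genes were called lower and 18.7% higher. PLK1, a mitotic kinase that marks claspin for destruction, fell by 0.93 ± 0.06 (adjusted p = 5.50e-05). PPM1D, a phosphatase that acts on ATM and CHEK1 and is itself induced by p53, rose by 0.26 ± 0.05 (adjusted p = 0.00383). PPM1D was also the 1 gene of the 48 called higher with olaparib alone, by 0.36 ± 0.05 (adjusted p = 0.0117). The olaparib calls of the 48, this one included, depended on single libraries, as given above. With olaparib the lowest called members were CDC25A (−0.32 ± 0.06, adjusted p = 0.0209), RFC3 (−0.28 ± 0.04, adjusted p = 0.0138) and DBF4, the activator of the CDC7 kinase (−0.26 ± 0.04, adjusted p = 0.0178). In other roles they were NBN of the MRE11 complex, which recruits ATM to breaks (−0.23 ± 0.06, adjusted p = 0.0407), USP7, a deubiquitinase that stabilises claspin (−0.21 ± 0.03, adjusted p = 0.0163), and RPA2 (−0.17 ± 0.04, adjusted p = 0.0461).

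Of the related kinases, 3 of 4 were lower with palbociclib, with PRKDC, the catalytic subunit of DNA-PK, at −0.42 ± 0.05 (adjusted p = 0.000398), and 3 of 4 with the combination (PRKDC −0.54 ± 0.05). The TTT complex, which assembles ATM and ATR, had 1 of 3 lower with palbociclib, a share like that of all tested genes, and 3 of 3 with the combination, beside 35.3% of all tested genes, TTI1 falling by 0.38 ± 0.04 (adjusted p = 0.000341).

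**Figure D5:**
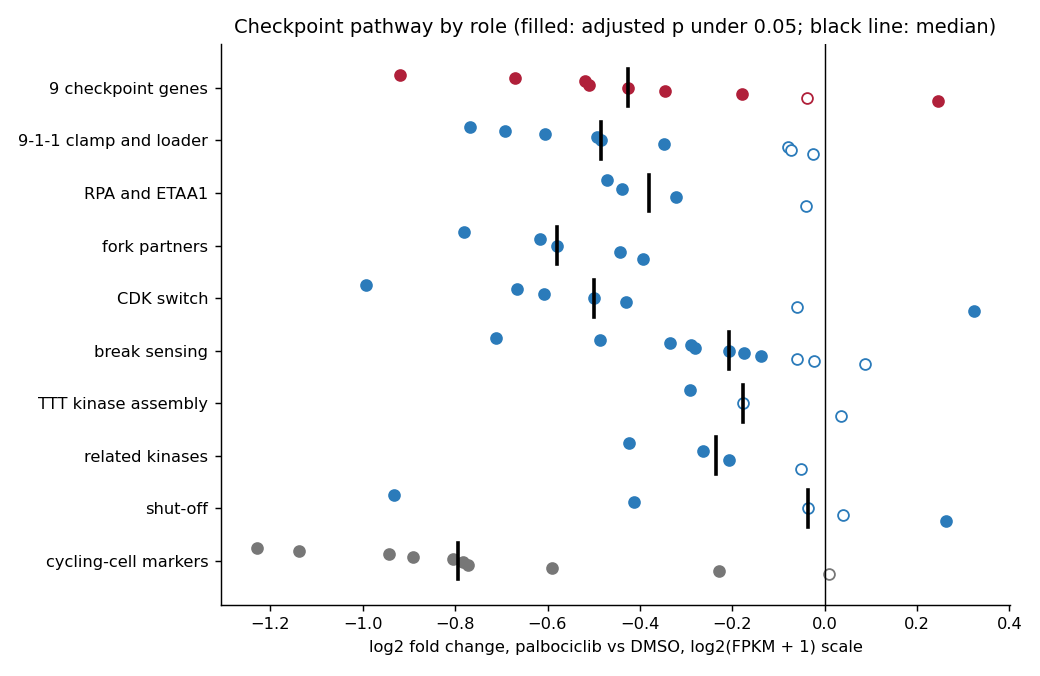
Log2 fold change with palbociclib against DMSO on the log2(FPKM + 1) scale for the 9 tested checkpoint genes, the 48 other pathway genes by role and the 10 cycling-cell markers, filled where the adjusted p was under 0.05, with the group median as a black line. Fork partners are all below 0, CDC25C and PPM1D lie to the right at 0.32 and 0.26, and the cycling-cell markers have a median of −0.79.

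The genes with the most alike profile over the 8 libraries were found by Euclidean distance between mean-centred log2(FPKM + 1) values. For CHEK1 they were NASP (distance 0.0654), MCM6 and NEK4, and for CLSPN they were EXO1 (0.160), RRM2 and GINS2. For WEE1 they were PSIP1 (0.0347), CDK5RAP2 and ZNF566, for ATM they were CAPRIN2 (0.0674), KDM3A and PFKFB2, and for CHEK2 they were RASSF8 (0.0723), ZNF24 and NGLY1. The 8 libraries form 4 treatment groups, so these distances mostly compare 4 group means.

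Promoter sequences are shown for the 4 genes with an E2F core word and for ATM, which held the only CHR word, so the letters can be read beside the values. E2F and CHR words are known binding letters of cell cycle factors, and the part of those factors in the changes above was not tested. RefSeq (GRCh38.p14) gave 14 promoters for 9 of the 10 genes, each from 250 bases before to 50 after a start site, and some of them overlap, as the 3 of CHEK1 do. An E2F core word (TTCCCGC or the variant TTGGCGC, the variant TTCGCGC or the variant TTGCCGC, on either strand) was in 4 of the 14 (28.6%), beside 13.0% of all 35116 promoters and 20.2% of the 11892 of tested protein-coding genes. Counted by gene, it was in 4 of 9 (44.4%), CLSPN, TIMELESS, TIPIN and TOPBP1, beside 2164 of 8200 tested protein-coding genes (26.4%). CHEK1, at −0.52 with palbociclib beside −0.42 for TOPBP1, held no E2F core word in any of its 3 promoters. TIPIN held it in 1 of 2 promoters, and not in the one at the annotated start of the gene (chr15:66386668-66386967, minus strand). A CHR word (TTTGAA or the variant TTCGAA) was in 1 promoter (7.14%), beside 16.4% of all promoters and 11.5% of those of tested genes. A CCAAT box was in 11 promoters (78.6%), beside 34.6% and 35.1%, and by gene in 7 of 9 (77.8%), beside 43.6% of tested genes. A match describes letters and does not show binding. The 5 promoters run 5′ to 3′ along the gene, with E2F words, CHR words and CCAAT boxes in capitals, all read on either strand and joined where words overlap. The E2F word starts at −5 from the start site in CLSPN (chr1:35769929-35770228, minus strand), at 10 in TIMELESS (chr12:56449377-56449676, minus strand), at −65 and −62 in TIPIN (chr15:66356636-66356935, minus strand) and at −10 and −7 in TOPBP1 (chr3:133661892-133662191, minus strand). The ATM promoter (chr11:108222817-108223116, plus strand) holds its CHR word at −20 and a CCAAT box at −188.
CLSPN: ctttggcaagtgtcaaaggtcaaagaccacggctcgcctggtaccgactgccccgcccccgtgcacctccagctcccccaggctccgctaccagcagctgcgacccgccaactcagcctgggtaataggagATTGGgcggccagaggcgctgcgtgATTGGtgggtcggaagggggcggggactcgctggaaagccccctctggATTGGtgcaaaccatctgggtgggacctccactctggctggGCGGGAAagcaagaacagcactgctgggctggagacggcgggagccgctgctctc
TIMELESS: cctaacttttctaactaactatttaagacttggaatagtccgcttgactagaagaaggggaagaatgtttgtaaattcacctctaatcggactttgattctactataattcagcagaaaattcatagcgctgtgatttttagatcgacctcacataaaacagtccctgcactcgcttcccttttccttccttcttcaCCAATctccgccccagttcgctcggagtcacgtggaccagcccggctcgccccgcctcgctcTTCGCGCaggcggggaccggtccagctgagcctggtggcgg
TIPIN: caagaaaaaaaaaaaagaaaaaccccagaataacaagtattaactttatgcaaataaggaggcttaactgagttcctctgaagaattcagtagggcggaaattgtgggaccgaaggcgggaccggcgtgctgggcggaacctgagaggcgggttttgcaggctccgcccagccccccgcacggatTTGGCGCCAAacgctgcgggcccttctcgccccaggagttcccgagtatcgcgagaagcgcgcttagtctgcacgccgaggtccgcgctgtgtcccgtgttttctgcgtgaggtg
TOPBP1: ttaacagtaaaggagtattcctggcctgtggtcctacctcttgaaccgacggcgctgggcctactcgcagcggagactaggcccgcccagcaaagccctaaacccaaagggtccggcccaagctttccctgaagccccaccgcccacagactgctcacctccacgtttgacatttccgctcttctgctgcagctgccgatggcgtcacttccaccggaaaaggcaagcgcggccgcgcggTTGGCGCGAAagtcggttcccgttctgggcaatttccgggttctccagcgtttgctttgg
ATM: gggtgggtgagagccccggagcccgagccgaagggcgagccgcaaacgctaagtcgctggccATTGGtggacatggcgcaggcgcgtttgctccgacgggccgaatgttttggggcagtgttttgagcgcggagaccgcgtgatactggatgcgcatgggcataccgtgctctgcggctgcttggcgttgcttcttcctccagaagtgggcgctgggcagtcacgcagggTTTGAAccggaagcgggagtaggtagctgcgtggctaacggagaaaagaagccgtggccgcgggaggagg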

How the data were processed

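Polyadenylated RNA was sequenced after NEBNext Ultra library preparation, per the labels' protocols. Per the submitters' processing notes, which give no role or order, the tools were STAR 2.5.1b, HTSeq 0.6.0 and CASAVA 1.8, with hg38 and GRCh38 as builds. The authors deposited FPKM values for 31721 Ensembl genes in 8 libraries. Symbols and exon lengths came from GENCODE v29 (GRCh38). FPKM times that length gave whole reads within 0.01 reads for 28635 genes (90.3%); for the other 3086, ATM, ATRIP, CHEK2 and TOPBP1 among them, a length was searched that gave whole reads, so these are no independent check. Recovered totals were 20566089 to 34056976 reads per library.

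Values were analysed as log2(FPKM + 1), a scale that understates changes of low genes, with limma 3.58.1 in R 4.3.3: 1 mean per group, all 8 libraries, a trend on expression, and degrees of freedom of 4 (residual) and 3.01 (prior). The test took the 12443 genes whose mean was at least 1 FPKM, and 19278 were below. Tests were two-sided, with Benjamini-Hochberg adjustment over all tested genes and a threshold of 0.05. Named genes were all 10 checkpoint genes and, by a rule on which could be named, the highest and lowest called pathway gene per role and treatment against DMSO, and the 3 nearest protein-coding profiles of CHEK1, CLSPN, WEE1, ATM and CHEK2. Outside that rule, the clamp and loader genes that did not pass with palbociclib were also named. The members and lists were chosen with earlier results of these data known. Alternatives were a pseudocount of 0.1, no filter, a filter of at least 5 FPKM, quantile normalisation, TPM scaling, voom on recovered reads, only the groups compared, a replicate block, and leaving out each library.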

Additional observations from a re-analysis of the deposited data

How the results depend on the processing

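Calls of CLSPN, TIPIN, CHEK1, TIMELESS, TOPBP1 and WEE1 with palbociclib and the combination held under every alternative. With olaparib, 1 of the 9 checkpoint genes was called, against 0 with no filter, quantile normalisation or TPM scaling, 4 with at least 5 FPKM, 5 with voom, and 0 to 1 without each library. ATR (mean 4.02 FPKM) was not tested with the filter of at least 5 FPKM, and ATRIP joined the test with no filter. The whole table moved alike, with 14.6% of tested genes called, against 1.89% with no filter, 8.04% with quantile normalisation, 11.3% with TPM scaling, 29.2% with at least 5 FPKM and 24.5% with voom. Of the 48 pathway genes 8 were called, against 5 with no filter or quantile normalisation, 15 with voom, and 0 to 8 without each library. For the combination against palbociclib, voom called 1 checkpoint gene and 2 pathway genes, beside 3.25% of all tested genes. Limma called 0 of either, beside 0.0241%. Some small log2 fold changes changed sign. With TPM scaling ATM with olaparib was 0.022, and ATR was 0.052 with palbociclib and 0.016 with the combination. Against olaparib, CHEK2 in the combination was 0.049 with quantile normalisation and 0.052 with TPM scaling, and ATR −0.014 with quantile normalisation. Against palbociclib, CHEK2 was 0.016 with quantile normalisation and 0.015 with TPM scaling. The departure of TIPIN was −0.011 with quantile normalisation and −0.0049 with voom. Without each library, ATM with olaparib ran from −0.11 to 0.039, and WEE1 with olaparib from −0.017 to 0.018. In the combination against olaparib, ATR ran from −0.050 to 0.068 and CHEK2 from −0.066 to 0.022, and against palbociclib CHEK2 from −0.070 to 0.031. The departures ran from −0.011 to 0.11 for ATR, −0.16 to 0.054 for CLSPN and −0.056 to 0.13 for TIPIN. The cause was not tested. Replicate numbers were not shown to pair samples: differences between replicates correlated at −0.05 to 0.03 between groups. With a replicate block, 2 checkpoint genes were called with olaparib, beside 17% of all tested genes. With 2 libraries per group, small changes such as those of ATR and CHEK2 are limited by replicate spread, and ATRIP by its 0 to 11 recovered reads.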

Other observations

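A list of 5 targets of p53, a transcription factor that ATM and ATR phosphorylate, was measured beside the checkpoint genes. MDM2, the ligase that removes p53, was the only one of the 5 called in opposite directions with the single drugs. With olaparib all 5 were called higher by limma, beside 4.13% of all tested genes, with CDKN1A, the p21 inhibitor of cyclin-dependent kinases, at 1.24 ± 0.06 (SE, adjusted p = 0.00175) and MDM2 at 0.39 ± 0.06 (adjusted p = 0.0137). With palbociclib 4 of 5 were called higher, beside 18.7% of all tested genes, CDKN1A at 0.51 ± 0.06 (adjusted p = 0.000716), and MDM2 fell by 0.24 ± 0.06 (adjusted p = 0.0136). With the combination 4 of 5 were called higher, beside 21.5%, and MDM2 was −0.04 ± 0.06 (adjusted p = 0.548). The departure from additivity was called for 0 of 5 by limma, beside 0.00804% of all tested genes. An unadjusted p under 0.05 was found for 4 of the 5, beside 1315 of all 12443 tested genes. All 5 departures were negative, beside 5646 of the 12443. They ran from −0.74 for CDKN1A (95% interval −0.95 to −0.53) to −0.20 for MDM2 (−0.39 to 0.0015).

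Across tested protein-coding genes with a promoter, the median palbociclib log2 fold change was −0.13 for the 2164 genes with an E2F core word and −0.05 for the 6036 without. For the CHR word the medians were −0.10 for the 1219 genes with it and −0.07 for the 6981 without, the same direction as for E2F. For the CCAAT box both medians were −0.07. These medians are descriptions of gene sets, and no test was run on them.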
